A study of Mus musculus with 8 samples.

Results

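Double-knockout (dKO) mouse hematopoietic stem and progenitor cells (HSPCs) that had received wild-type PRMT1 were compared with dKO cells that had received an empty vector, across 12743 genes other than Prmt1. The 2 groups, called dKO_PRMT1 and dKO_EV here, have 2 libraries each and were assigned by their sample titles. They make up 4 of the 8 RNA-seq libraries of the study. The other 4 libraries are dKO cells with an enzymatically dead PRMT1 (dKO_MUT, 2 libraries) and wild-type cells with the empty vector (WT_EV, 2 libraries). All 6 dKO libraries share the same knockout, which the labels write only as dKO. The title of the study names β-catenin and Hoxa9. The cells came from primary transplanted mice. The alleles, the deleted exons, the vector and the species of the insert are, like strain and age, not stated in the labels. Nothing in the labels says that the 2 libraries of a group are separate mice or cultures, and p-values therefore reflect spread among libraries that may be of technical origin. For replicate 2 of dKO_MUT the genotype label reads PRMT2, whereas its title places it with the mutant group. Its Prmt2 level was 3.96 CPM, close to the 3.45 CPM of replicate 1, and its Prmt1 level was close to that of replicate 1 as well.

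PRMT1 is an enzyme that adds methyl groups to arginines in histones and in many RNA-binding and signaling proteins. A catalytically dead form serves as a control that keeps the protein without this activity. HSPC preparations hold stem cells together with progenitors of the granulocyte, macrophage, mast cell, megakaryocyte and erythroid lineages, and each of these carries marker genes of its own. Interferons switch on antiviral genes in such cells through transcription factors such as IRF9 that bind a short DNA element called the interferon-stimulated response element.

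Library totals ran from 15531344 to 22329749 counts. Levels are CPM, read counts scaled to a common library size with TMM factors, each group by its replicates 1 and 2 in that order. Prmt1 stood at 189.7 and 194 CPM in dKO_EV, 981 and 976 CPM in dKO_PRMT1 and 1744 and 1758 CPM in dKO_MUT, so both inserts were detected and the mutant transcript was the more abundant. Its level in dKO_PRMT1 was 5.09-fold that of dKO_EV and 1.79-fold lower than that of dKO_MUT, so in every comparison with dKO_MUT enzyme activity and transcript level cannot be told apart. Ctnnb1, which encodes β-catenin, was at 391 and 379 CPM in dKO_EV and 372 and 371 CPM in dKO_PRMT1, and Hoxa9 was at 5.79 and 3.63 CPM and 3.76 and 1.87 CPM. Neither passed the test between these groups (adjusted p = 0.462 and 0.206). The progenitor markers Kit and Cd34 were present in all 8 libraries, from 137 to 171 CPM for Kit and from 105 to 162 CPM for Cd34, whereas the stem cell marker Slamf1 lay between 0.38 and 1.66 CPM. Kit was 1.16-fold higher in dKO_PRMT1 than in dKO_EV (adjusted p = 0.011), a call lost without dKO_EV replicate 2 or either dKO_PRMT1 library, and Cd34 was 1.17-fold lower (adjusted p = 0.00463), a call lost without dKO_PRMT1 replicate 2. The B cell gene Pax5 and the T cell gene Cd3e had 0 counts in all 6 dKO libraries. Both do not stand for their lists, of which 7 B cell and 11 T and NK cell markers had enough counts for the test. The tested B cell markers summed to 20.05 and 20.29 CPM in dKO_EV and 17.65 and 18.01 CPM in dKO_PRMT1. Of these 7, 1 was lower in dKO_PRMT1, a call lost without either dKO_PRMT1 library. The T and NK cell markers are given below with Gzmb.

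Wild-type PRMT1 was accompanied by a broad transcript change in which decreases were larger than increases. Of 12744 genes tested, Prmt1 included, 1864 (14.6%) passed an adjusted p below 0.05 by the edgeR quasi-likelihood test, 759 (5.96%) higher and 1105 (8.67%) lower in dKO_PRMT1. The median called decrease was -0.59 on the log2 scale and the median called increase 0.29, while the median over all tested genes was 0.000386. In 3289 genes (25.8%) both dKO_PRMT1 libraries were above both dKO_EV libraries and in 3368 (26.4%) both were below, which is the base rate for the statements on overlap that follow. Between dKO_PRMT1 and dKO_MUT these shares were 22.3% and 21.8%. At least 2-fold decreases numbered 253 (1.99%) and at least 2-fold increases 39 (0.306%). Without dKO_PRMT1 replicate 1 the number called was 1133, and without replicate 2 it was 1058.

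The share of genes called followed the level of the gene. It was 3.39% among 1179 genes below 1 CPM, 13.5% among 2519 genes from 5 to 20 CPM and 26.9% among 2405 genes at 100 CPM or more. The balance of directions differed along the scale. From 5 to 20 CPM 54 genes were higher and 285 lower, whereas at 100 CPM or more 360 were higher and 287 lower. Of the 39 increases of at least 2-fold, 33 belonged to genes below 5 CPM on average, and 1 of those at 100 CPM or more is Prmt1 itself.

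**Figure D1:**
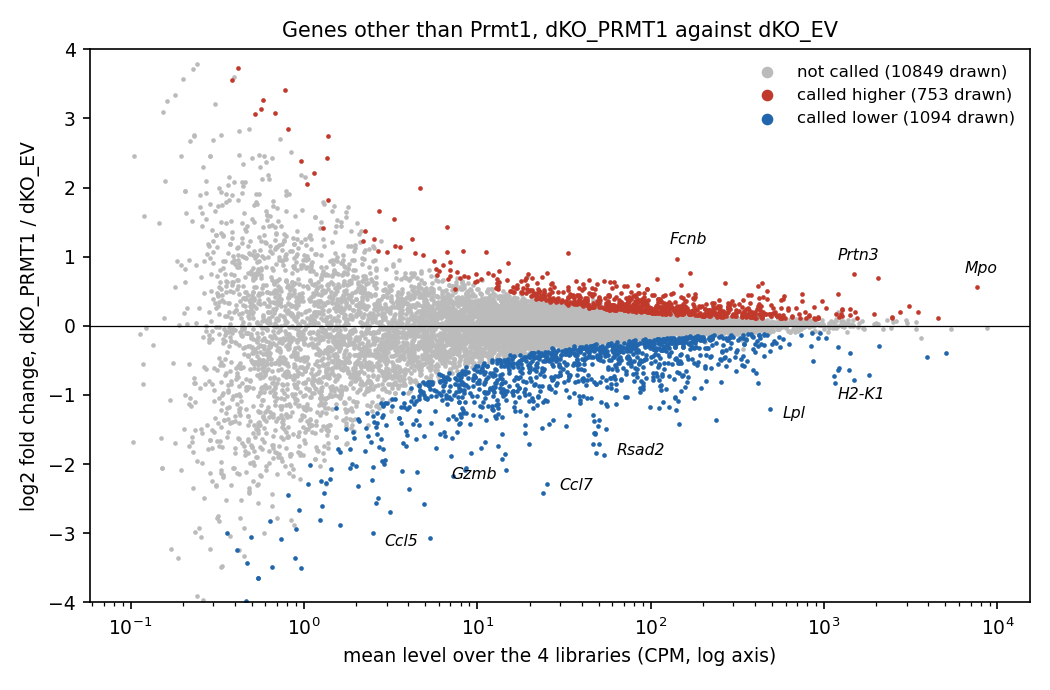
Log2 fold change of dKO_PRMT1 over dKO_EV (vertical axis) against the mean CPM of the 4 libraries (horizontal log axis), 1 point per tested gene other than Prmt1, with 47 genes outside the axes. Called increases (red) stay close to the zero line at high levels and called decreases (blue) reach further from it.

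The largest single changes were also lopsided. Among called genes at 5 CPM or more over the 4 libraries, with no overlap between the groups and an established symbol, the largest increase was 2.11-fold, that of Myo18b, whereas the 12 largest decreases ran from 3.59-fold for Ccl2 to 8.37-fold for Ccl5. Bzrap1, also called Tspoap1, stood at 22.1 and 21.1 CPM with the empty vector, 31.5 and 30.4 CPM with the mutant and 47.3 and 42.1 CPM with wild-type PRMT1. It rose 2.07-fold (adjusted p = 8.22e-09). Myo18b, an unconventional myosin, rose from 5.6 and 5.06 CPM to 10.8 and 11.7 CPM (adjusted p = 0.000273). The 12 decreases were those of Ccl5, Irg1, Ccl7, Asprv1, Gzmb, Col4a1, Flrt2, Gbp6, Ccl4, Rsad2, Myl10 and Ccl2. Flrt2, a cell surface guidance protein, fell 4.16-fold from 11.4 and 16.3 CPM to 3.26 and 3.44 CPM (adjusted p = 3.77e-08).

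Genes of the interferon response were lower as a group. Of 69 tested members, 57 were called lower and 2 higher, and their median log2 difference was -0.68. The receptor subunit genes for type I interferon were among those that did not pass. Ifnar1 stood at 147 and 158 CPM in dKO_EV and 142 and 142 CPM in dKO_PRMT1, with a 95% interval of -0.22 to 0.01 for the log2 difference. Ifngr1, which encodes the interferon gamma receptor, rose from 242 and 251 CPM to 312 and 310.4 CPM (1.26-fold, adjusted p = 4.77e-07). It also lay above dKO_MUT, where it stood at 256 and 259 CPM (adjusted p = 6.5e-05). The 2 increases in the list were those of Ifngr1 and Irf8.

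Of 12 transcription factors and receptors of the pathway 5 were lower and 2 higher. Irf7, the factor that amplifies interferon production, stood at 337 and 349 CPM in dKO_EV and 139 and 128 CPM in dKO_PRMT1. It fell 2.57-fold (log2 -1.36, SE 0.05, adjusted p = 6.53e-21). Irf9, the DNA-binding subunit of the factor downstream of type I interferon, stood at 82.5 and 93.6 CPM against 57 and 54.7 CPM. This drop of 1.58-fold left no overlap between the groups (adjusted p = 2.61e-08). Irf8, a factor of monocyte and dendritic cell fate, went the other way. It rose from 108 and 108 CPM to 134 and 131 CPM (adjusted p = 0.000197), and was at 153 and 153 CPM in dKO_MUT. Of 13 nucleic acid sensors 9 were lower and none higher. Ddx58, the RNA sensor RIG-I, stood at 139 and 125 CPM in dKO_EV and 82.7 and 82.4 CPM in dKO_PRMT1 (log2 -0.68, SE 0.06). For Ifih1, the sensor MDA5, the levels were 103 and 91.6 CPM and 64.2 and 56.1 CPM (log2 -0.69, SE 0.08). Both fell with similar size, and their dKO_MUT libraries lay at 83.4 and 83.6 CPM and 63.1 and 55 CPM, close to those with wild-type PRMT1.

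The antiviral effectors were the role in which nearly every member was called: 43 of 44 were lower and none was higher, at a median of -0.78. Rsad2, which encodes the antiviral enzyme viperin, stood at 83.1 and 85.5 CPM (dKO_EV), 36.3 and 43.2 CPM (dKO_MUT) and 25.5 and 20.6 CPM (dKO_PRMT1). It fell 3.66-fold against dKO_EV (adjusted p = 3.56e-17) and 1.72-fold against dKO_MUT (adjusted p = 1.3e-06). Ifit3, an antiviral gene of the Ifit family, followed the same order at 78.7 and 84.3, 44.2 and 47.3 and 29.5 and 28.6 CPM. Its drop was 2.8-fold against dKO_EV (adjusted p = 1.59e-16) and 1.57-fold against dKO_MUT (adjusted p = 1.39e-06). Isg15, a ubiquitin-like modifier, fell 2.19-fold from 76.1 and 76.5 CPM to 35.5 and 34.2 CPM (adjusted p = 5.47e-13), and its dKO_MUT libraries were at 35.4 and 38.4 CPM. The difference of Isg15 between the inserts did not pass, with a log2 interval of -0.26 to 0.10. Oas3, which makes the messenger that activates RNase L, fell 1.86-fold from 247 and 262 CPM to 139.8 and 133 CPM (adjusted p = 2.13e-16).

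Over the whole list 9 of 69 members were lower and 1 higher in dKO_PRMT1 than in dKO_MUT, beside 1.68% lower and 1.43% higher over all tested genes. The 9 came to 5 without dKO_MUT replicate 2 and to 4 without dKO_PRMT1 replicate 1 or 2. In the same fit 56 of the 69 were lower in dKO_MUT than in dKO_EV, beside 7.08% of all tested genes. The 2 comparisons share the dKO_EV libraries, so these counts are not independent. Reads of near-identical family members such as Ifit3 and Ifit3b or the Oas1 genes may have been shared in the authors' counting, so single members of those families are uncertain. Monocyte and macrophage markers moved with this list: 26 of 47 were lower and 6 higher, and their summed level was 11294 and 11357 CPM in dKO_EV and 9689 and 9818 CPM in dKO_PRMT1. Their part in the interferon result was not tested.

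The DNA next to these genes is shown because the letters of the interferon-stimulated response element recur there. RefSeq promoter windows (GRCm38.p6, from 250 bases before to 50 after a gene start) matched 10110 of the 12744 tested genes, with 12679 windows. The letters GAAA, any 2 bases and GAAA again, on either strand, were found in 23 of 42 windows of the antiviral effectors (54.8%), against 3.23% of windows of all tested genes and 3.44% of all 32851 windows of the table. They were in 8.64% of windows of genes called lower, in 2.87% of those called higher and in 2.69% of those not called. Leaving the interferon list out, the share among genes called lower was 6.62%. A match is a description of the letters and does not show binding. The stretches below run 5′ to 3′ on the strand of the gene, end before its start, and have each match in capitals. Rsad2 lies at chr12:26456533-26456602 on the minus strand, Ifit3 at chr19:34583343-34583446 on the plus strand, Isg15 at chr4:156200845-156200926 on the minus strand, Bst2 at chr8:71537557-71537632 on the minus strand and Oas1a at chr5:120907526-120907575 on the minus strand.
Rsad2: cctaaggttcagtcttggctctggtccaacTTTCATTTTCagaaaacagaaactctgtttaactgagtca
Ifit3: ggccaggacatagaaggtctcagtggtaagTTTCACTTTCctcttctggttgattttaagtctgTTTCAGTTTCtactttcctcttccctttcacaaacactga
Isg15: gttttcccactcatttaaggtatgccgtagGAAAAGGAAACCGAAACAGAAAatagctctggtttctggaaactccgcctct
Bst2: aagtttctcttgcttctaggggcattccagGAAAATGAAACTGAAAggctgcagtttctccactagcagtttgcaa
Oas1a: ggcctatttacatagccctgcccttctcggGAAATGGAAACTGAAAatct
Overlapping matches run together in Isg15, Bst2 and Oas1a. Bst2, which tethers budding viruses to the cell, fell 1.89-fold from 157 and 162 CPM to 82.2 and 86.9 CPM (adjusted p = 6.33e-15). Oas1a fell 1.83-fold from 140.0 and 154 CPM to 80.4 and 80.8 CPM (adjusted p = 3.02e-13).

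Antigen presentation split by class. Of 18 genes of MHC class I and the immunoproteasome 13 were lower and 2 higher, whereas of 8 MHC class II genes 4 were higher and none lower. The 2 higher of the first list came to 1 without dKO_EV replicate 1 or either dKO_PRMT1 library. H2-K1, a class I heavy chain, stood at 1403 and 1420.0 CPM with the empty vector, 1028 and 1032 CPM with the mutant and 868 and 845 CPM with wild-type PRMT1. B2m, the light chain that every class I molecule needs, stood at 1681 and 1692, 1265 and 1219 and 1088 and 1075 CPM. Both genes took the lowest level in dKO_PRMT1, with no overlap between any of the groups. H2-K1 fell 1.65-fold against dKO_EV and 1.2-fold against dKO_MUT (adjusted p = 9.48e-19 and 4.92e-07). B2m fell 1.56-fold and 1.15-fold (adjusted p = 1.57e-17 and 6.26e-05). Tap1, the peptide transporter, fell 1.53-fold from 246 and 251 CPM to 168 and 157 CPM (adjusted p = 4.65e-12). The immunoproteasome subunit gene Psmb8 fell by less (log2 -0.32, adjusted p = 4.41e-06). Calr, an endoplasmic reticulum chaperone counted in the list because it loads class I molecules, rose from 2517 and 2603 CPM to 2967 and 2942 CPM (adjusted p = 1.44e-06). Class I heavy chain genes resemble each other, so reads may have been split among them.

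Ciita, which encodes the master activator of class II genes, stood at 41.8 and 36.5 CPM in dKO_EV and 55.9 and 56.7 CPM in dKO_PRMT1. It rose 1.44-fold (log2 0.53, SE 0.10, adjusted p = 0.000157). H2-Aa and H2-Ab1, the 2 chains of 1 class II molecule, rose 1.18-fold each, from 254 and 262 CPM to 299.8 and 309.9 CPM and from 257 and 271 CPM to 315 and 309 CPM (adjusted p = 0.000203 and 0.000213). Against dKO_MUT 7 of the 8 were higher and none lower. In those libraries Ciita was at 36.5 and 32.4 CPM, H2-Aa at 238 and 241 CPM and H2-Ab1 at 243 and 230.1 CPM. The direct test gave increases of 1.63-fold, 1.27-fold and 1.32-fold (adjusted p = 8.14e-06, 2.17e-06 and 1.81e-07). Of 17 dendritic cell markers, whose cells carry much class II, 3 were higher and 4 lower against dKO_EV.

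**Figure D2:**
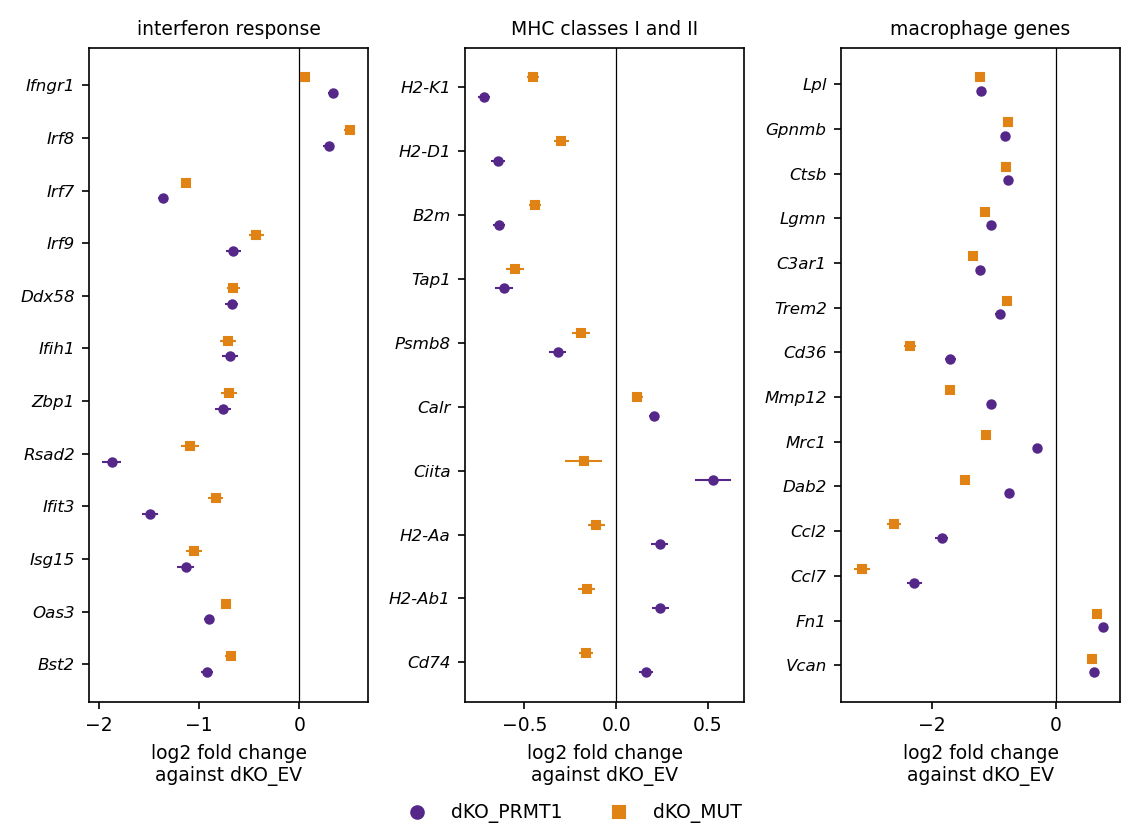
Log2 fold change against dKO_EV of dKO_PRMT1 (circles) and dKO_MUT (squares) for named genes of the interferon response, of MHC classes I and II, and of macrophages. Horizontal lines are standard errors, the 3 panels have different horizontal scales, and both sets of points share the dKO_EV libraries. H2-K1 sits further left with wild-type PRMT1 than with the mutant, the class II genes sit to the right of zero only with wild-type PRMT1, and Mrc1 and Cd36 sit further left with the mutant.

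Most chemokine genes, whose products attract leukocytes, were lower than with the empty vector. Of 16 tested myeloid chemokines 12 were lower than in dKO_EV and none was higher, at a median of -1.05. Against dKO_MUT 2 were higher, Ccl2 and Ccl7, and 2 lower, or 1 lower without dKO_MUT replicate 2. Ccl2 stood at 79.1 and 71.3 CPM (dKO_EV), 10.1 and 14.6 CPM (dKO_MUT) and 21.2 and 20.6 CPM (dKO_PRMT1). Ccl7 stood at 41.4 and 41.9, 4.19 and 5.37 and 8.37 and 8.7 CPM. Both attract monocytes, and both took their lowest level with the mutant and an intermediate one with wild-type PRMT1. Ccl2 was 3.59-fold lower than in dKO_EV but 1.71-fold higher than in dKO_MUT (adjusted p = 2.14e-16 and 4.46e-05). Without dKO_MUT replicate 1 the latter log2 difference moved from 0.77 to 0.51 and still passed. Ccl7 was 4.88-fold lower and 1.8-fold higher (adjusted p = 5.33e-17 and 0.000363). Ccl5, a chemokine of T cells and monocytes, had the largest decrease of any named gene. It stood at 11.6 and 7.61 CPM with the empty vector, 3.03 and 1.3 CPM with the mutant and 1.15 and 1.11 CPM with wild-type PRMT1, an 8.37-fold drop at low counts (adjusted p = 2.69e-08). Ccl6, an abundant chemokine of myeloid cells, had the other order. Its levels were 192 and 203 CPM (dKO_EV), 136 and 139 CPM (dKO_MUT) and 98.4 and 107 CPM (dKO_PRMT1), lower against both (adjusted p = 1.03e-15 and 2.44e-06). The macrophage marker levels given above moved with the chemokines too, and their part was not tested.

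Receptors for such signals were mostly lower too. Of 14 chemokine and chemoattractant receptors 9 were lower and 1 higher. C3ar1, the receptor of complement fragment C3a, fell 2.33-fold from 184 and 207 CPM to 86.1 and 82 CPM (adjusted p = 6.39e-18), and dKO_MUT was at 74.9 and 79.5 CPM. Ccr2, the receptor of CCL2 on monocytes and their precursors, was the increase. It stood at 329 and 333 CPM in dKO_EV and 418 and 413 CPM in dKO_PRMT1 (1.26-fold, adjusted p = 2.33e-07). Among 29 genes of the NF-kB pathway and inflammatory cytokines 6 were lower and none higher, a count that dropped to 2 without dKO_PRMT1 replicate 2. Irg1, whose enzyme makes the antibacterial metabolite itaconate, was the largest of these decreases. It fell 5.33-fold from 38.4 and 42.5 CPM to 9.03 and 6.17 CPM (adjusted p = 1.34e-16), with 8.48 and 8.95 CPM in dKO_MUT.

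Neutrophil genes changed in both directions, with primary granule genes higher and later granule genes split. Of 15 tested primary granule genes, which promyelocytes express, 12 were higher and none lower, at a median of 0.50. Mpo, the myeloperoxidase gene, stood at 6136 and 6207 CPM with the empty vector, 7734 and 8030.0 CPM with the mutant and 9081 and 9064 CPM with wild-type PRMT1. Elane, which encodes neutrophil elastase, stood at 1529 and 1584, 1966 and 2102 and 2508 and 2523 CPM. Prtn3, the proteinase 3 gene, stood at 1117 and 1106, 1432 and 1500.3 and 1861 and 1872 CPM. All 3 rose from the empty vector to the mutant and from the mutant to wild-type PRMT1, and no group overlapped another. The increases over dKO_EV were 1.47-fold for Mpo, 1.62-fold for Elane and 1.68-fold for Prtn3 (adjusted p = 6.39e-18, 6.39e-18 and 5.94e-19). Over dKO_MUT they were 1.15-fold, 1.24-fold and 1.27-fold (adjusted p = 2.14e-06, 4.49e-08 and 1.78e-09). Against dKO_MUT 10 of the 15 were higher and 1 lower.

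Gfi1 and Cebpe were among the 6 higher of 28 myeloid fate transcription factors, of which 5 were lower. Gfi1, a repressor needed for neutrophil formation, stood at 81.8 and 85.7 CPM (dKO_EV), 89 and 86.9 CPM (dKO_MUT) and 129.7 and 138 CPM (dKO_PRMT1). It rose 1.59-fold over dKO_EV and 1.52-fold over dKO_MUT (adjusted p = 6.36e-10 and 4.71e-08). Cebpe, the factor of the later granules, stood at 101 and 98.7 CPM in dKO_EV and 135 and 135 CPM in dKO_PRMT1, a 1.35-fold increase (adjusted p = 1.79e-06). Fcnb, a pattern-recognition protein of immature neutrophils, rose 1.95-fold from 89.8 and 103 CPM to 195 and 183 CPM and was 1.58-fold above dKO_MUT (adjusted p = 4.15e-14 and 3.96e-09).

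Secondary and tertiary granule genes, made at later stages, split within the list. Against dKO_EV 13 of 31 were higher and 8 lower, and without dKO_PRMT1 replicate 2 the lower count was 5. Against dKO_MUT 1 was higher and 16 lower, and the 1 higher did not pass without dKO_MUT replicate 1 or either dKO_PRMT1 library. Ltf, the lactoferrin gene, stood at 1373 and 1422 CPM with the empty vector, 2112 and 2137 CPM with the mutant and 1622 and 1602 CPM with wild-type PRMT1. Ngp, another secondary granule gene, stood at 2697 and 2890.4, 3807 and 3938 and 3449 and 3392 CPM. Both were higher than in dKO_EV (adjusted p = 7.02e-06 and 4.74e-09) and lower than in dKO_MUT (adjusted p = 2.64e-11 and 0.00023). Camp, the cathelicidin gene, rose 1.38-fold over dKO_EV, from 612 and 647 CPM to 848 and 886 CPM (adjusted p = 9.2e-12).

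Mmp9, Retnlg and Cxcr2, which are among the 8 lower members of that list and known from mature neutrophils, fell against both the empty vector and the mutant. They were named for the size or p of their change and do not stand for the list, of which more members were higher than lower against dKO_EV. Mmp9, a gelatinase of tertiary granules, stood at 229 and 197 CPM (dKO_EV), 226 and 211 CPM (dKO_MUT) and 78.6 and 79.9 CPM (dKO_PRMT1). Retnlg, a resistin-like protein of mature neutrophils, stood at 69.4 and 73.8, 83.5 and 84.5 and 21.8 and 22 CPM. Cxcr2, the receptor that draws neutrophils out of the marrow, stood at 75.7 and 70.1, 61 and 63.2 and 24.7 and 28.7 CPM. In each of these genes both dKO_PRMT1 libraries were below all other dKO libraries. Mmp9 fell 2.69-fold against dKO_EV and 2.76-fold against dKO_MUT (adjusted p = 4.49e-17 and 9.51e-17). Retnlg fell 3.27-fold and 3.83-fold (adjusted p = 2.79e-16 and 5.98e-17). Cxcr2 fell 2.73-fold and 2.32-fold (adjusted p = 1.37e-14 and 1.23e-11). The formyl peptide receptor genes Fpr1 and Fpr2, which sense bacterial peptides, also fell against both groups, 3.26-fold and 1.82-fold against dKO_EV (adjusted p = 2.91e-11 and 3.59e-07). Between dKO_MUT and dKO_EV, Mmp9 and Retnlg did not pass, with unadjusted 95% intervals of -0.09 to 0.17 and 0.05 to 0.41 on the log2 scale. In WT_EV, which was not tested here, Mmp9 was at 97 and 82.9 CPM and Retnlg at 26.9 and 32.9 CPM. In bulk RNA, fewer cells of a type and less RNA per cell cannot be told apart, here or for any other lineage below.

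**Figure D3:**
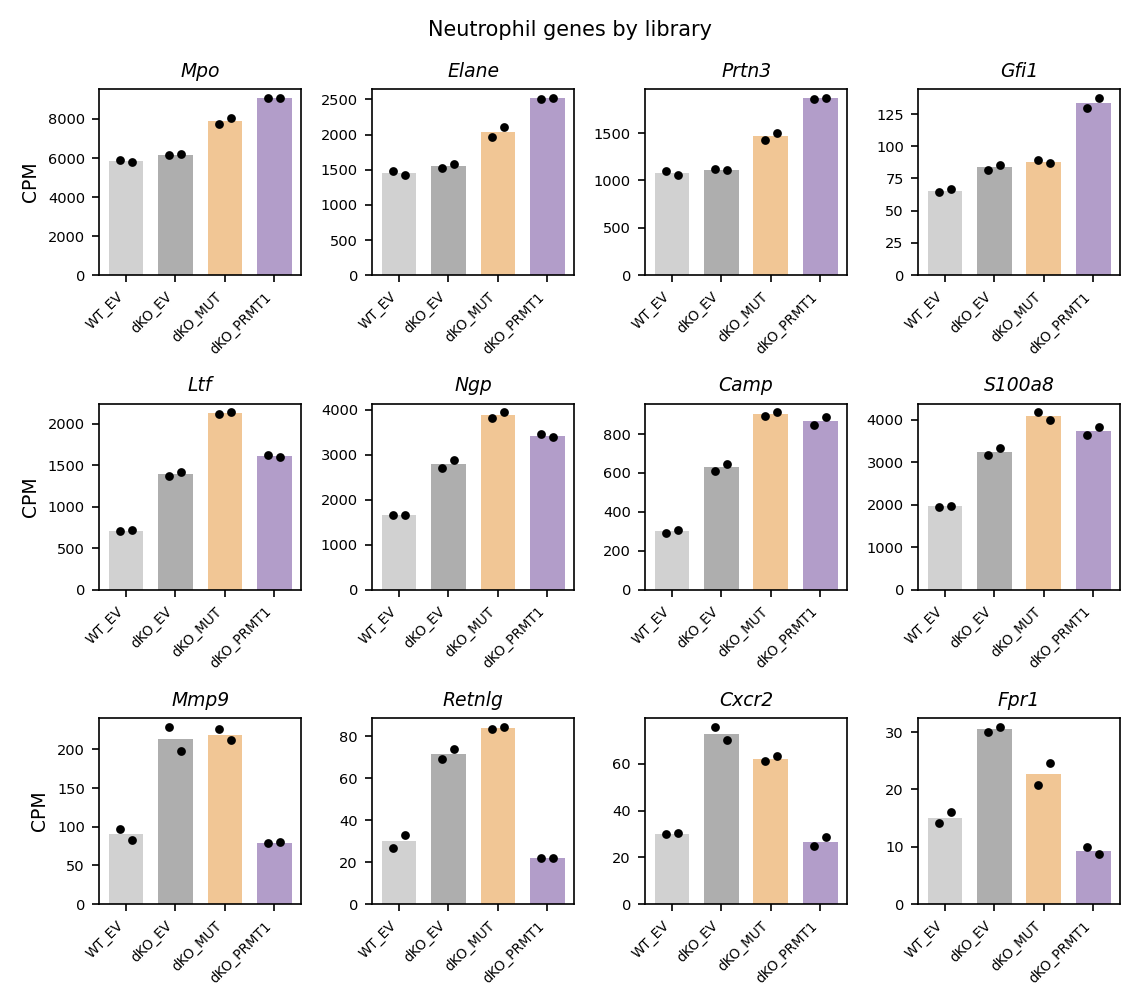
Levels in CPM of 12 neutrophil genes in each library (points, 2 per group) with group means (bars). In the top row dKO_PRMT1 is highest, in the middle row it lies between dKO_EV and dKO_MUT or close to dKO_MUT, and in the bottom row it is lowest among the dKO groups.

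Mast cell and basophil genes were lower than in both other dKO groups. Of 22 tested markers 16 were lower and 2 higher than in dKO_EV, at a median of -0.64, and 14 were lower and 1 higher than in dKO_MUT. The 2 higher came to 1 without dKO_EV replicate 2 or either dKO_PRMT1 library, and the 1 higher to 0 without dKO_MUT replicate 2 or dKO_PRMT1 replicate 1. Fcer1a, the chain of the IgE receptor that binds IgE, stood at 52.8 and 53.9 CPM with the empty vector, 63.6 and 66.5 CPM with the mutant and 25.2 and 25.5 CPM with wild-type PRMT1. Cpa3, a protease of mast cells and basophils, stood at 179.7 and 181, 213 and 213 and 108 and 116 CPM. Prss34, a basophil protease, stood at 53.5 and 54.4, 82.4 and 75.5 and 29.7 and 33 CPM. All 3 were highest with the mutant and lowest with wild-type PRMT1, with no overlap between dKO_PRMT1 and the other groups. Fcer1a fell 2.11-fold against dKO_EV and 2.57-fold against dKO_MUT (adjusted p = 1.68e-11 and 2.04e-13). Cpa3 fell 1.61-fold and 1.9-fold (adjusted p = 3.95e-13 and 6.24e-16). Prss34 fell 1.72-fold and 2.52-fold (adjusted p = 2.13e-09 and 7.95e-15). Mcpt8, the basophil marker protease, and Ms4a2, the IgE receptor beta chain, fell 1.45-fold and 1.69-fold against dKO_EV (adjusted p = 3.77e-09 and 2.02e-09).

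Gzmb, which encodes granzyme B, had the largest fold of the members named here. It stood at 22.5 and 24.8 CPM (dKO_EV), 19.9 and 20.1 CPM (dKO_MUT) and 5.92 and 5.21 CPM (dKO_PRMT1). The drop was 4.26-fold against dKO_EV and 3.6-fold against dKO_MUT (adjusted p = 1.08e-15 and 2.97e-13). Granzyme B is best known from cytotoxic lymphocytes. The T and NK cell markers left untested for low counts, Cd3e and Gzma among them, had from 0 to 9 counts in each dKO library. Of 11 tested T and NK cell markers, Gzmb among them, 4 were lower, or 2 without dKO_PRMT1 replicate 2. Their summed level was 92.1 and 96.3 CPM in dKO_EV and 42.9 and 44.5 CPM in dKO_PRMT1, and their part in the result was not tested. In WT_EV Gzmb was at 127 and 127 CPM, above every dKO library. Gata2, a transcription factor of mast cells, basophils and stem cells, stood at 199 and 181 CPM in dKO_EV and 125 and 107 CPM in dKO_PRMT1. It fell 1.64-fold, and 1.5-fold against dKO_MUT (adjusted p = 1.67e-10 and 9.04e-08). Il1rl1, the receptor of interleukin 33, fell 1.63-fold from 38.6 and 44.5 CPM to 26.7 and 24.5 CPM (adjusted p = 1.15e-06). The GATA letters AGATAA, on either strand, were in 29.6% of 27 promoter windows of this list against 6.55% of windows of all tested genes. The mast cell tryptase gene Tpsab1 and the chymase gene Mcpt4 had 0 counts in all 8 libraries. The summed level of the tested markers was 2837 and 2827 CPM in dKO_EV, 2949 and 2929 CPM in dKO_MUT, against 2463 and 2453 CPM in dKO_PRMT1. Of 11 eosinophil genes 1 was lower and 2 were higher than in dKO_EV. The higher count was 1 without dKO_PRMT1 replicate 1 or either WT_EV library and 0 without dKO_PRMT1 replicate 2, and the lower count was 2 without dKO_EV replicate 2 or either dKO_MUT library.

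**Figure D4:**
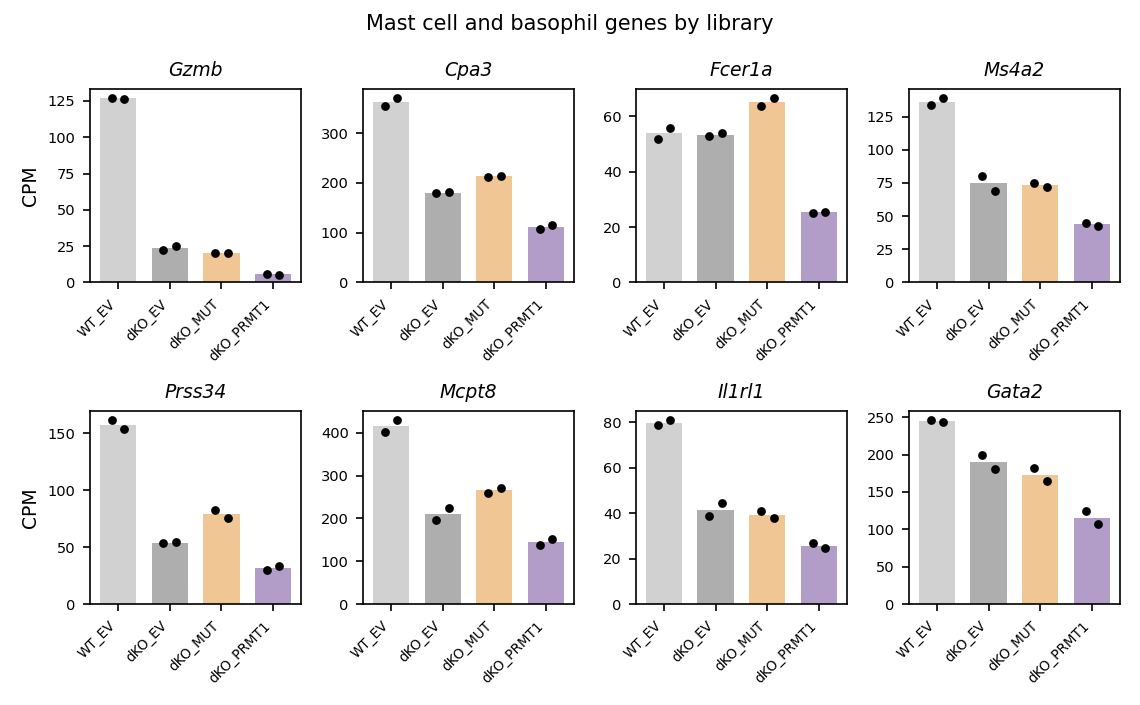
Levels in CPM of 8 mast cell and basophil genes in each library (points, 2 per group) with group means (bars). Among the dKO groups dKO_PRMT1 is lowest in every panel, and WT_EV is the highest group in all panels but that of Fcer1a.

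Megakaryocyte and platelet markers were mostly lower than in dKO_EV. Of 36 tested, 23 were lower and 1 higher, at a median of -0.76. F2r, the thrombin receptor, stood at 183 and 170.4 CPM with the empty vector, 96.4 and 102 CPM with the mutant and 74.8 and 81.8 CPM with wild-type PRMT1. Itga2b, the integrin chain CD41, stood at 149 and 146, 104 and 111 and 83.1 and 79.6 CPM. Pf4, which encodes platelet factor 4, stood at 115 and 122, 67.1 and 59.9 and 60.8 and 64.6 CPM. The dKO_EV libraries were highest in all 3, and for Pf4 the libraries of both inserts overlapped. The decreases against dKO_EV were 2.25-fold, 1.81-fold and 1.89-fold (adjusted p = 1.28e-16, 3.87e-13 and 1.56e-12). Gfi1b, a transcription factor of this lineage, fell 2.44-fold from 30.2 and 24.4 CPM to 11.1 and 11.1 CPM (adjusted p = 4.16e-08). Against dKO_MUT 6 of the 36 were lower and 1 higher, and the 6 came to 1 without dKO_PRMT1 replicate 1 and to 3 without replicate 2. Of 20 erythroid markers 9 were lower and 1 higher than in dKO_EV, with 5 lower when dKO_PRMT1 replicate 1 was left out.

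Stem cell and early progenitor genes were lower in the same comparison. Over the 32 members with a mean of at least 5 CPM the median log2 difference was -0.41. The summed level of all tested members was 2926 and 2856 CPM in dKO_EV and 2430 and 2448 CPM in dKO_PRMT1. Of 49 tested 25 were lower and 3 higher, at a median of -0.66, with 1 higher without dKO_EV replicate 2 or dKO_PRMT1 replicate 2. Adgrg1, the adhesion receptor GPR56, stood at 387 and 374 CPM (dKO_EV), 302 and 298 CPM (dKO_MUT) and 233 and 249 CPM (dKO_PRMT1). Angpt1, a ligand of the TIE2 receptor, stood at 99.3 and 91.3, 63.7 and 65.4 and 47.4 and 45.4 CPM. Both fell stepwise, by 1.58-fold and 2.05-fold against dKO_EV (adjusted p = 3.18e-14 and 5.1e-13) and by 1.24-fold and 1.39-fold against dKO_MUT (adjusted p = 6.58e-06 and 8.18e-05). The low-level genes Mecom, Hlf and Mycn, which encode transcription factors of stem cells, fell 3.4-fold, 1.98-fold and 2.25-fold (adjusted p = 4.26e-05, 5.8e-05 and 1.04e-06). Mecom was at 8.4 and 9.41 CPM in dKO_EV and 2.46 and 2.78 CPM in dKO_PRMT1. Meis1, a homeodomain partner of Hox proteins, fell 1.68-fold (adjusted p = 1.15e-05), and of 18 Hox and Meis family genes 2 were called lower and none higher. Ly6a, which encodes the stem cell antigen Sca-1 and is also induced by interferon, fell 1.49-fold from 239 and 255 CPM to 164 and 167 CPM (adjusted p = 3.74e-11). Ly6a has close copies, so its count is uncertain.

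Lpl, Gpnmb, Trem2 and Maf, known from macrophages, were lower than in dKO_EV and did not pass the test between the inserts. The genes named here were picked from lists that also hold members that rose. Lpl, which encodes lipoprotein lipase, had the smallest p of the genes called lower. It stood at 640.0 and 723 CPM with the empty vector, 287 and 296 CPM with the mutant and 295 and 295 CPM with wild-type PRMT1. The drop was 2.31-fold against dKO_EV (adjusted p = 2.46e-21), and the log2 interval of the difference between the inserts was -0.07 to 0.11. Gpnmb, a glycoprotein of lipid-laden macrophages, stood at 1439 and 1528, 877 and 867 and 846 and 831 CPM. It fell 1.77-fold (adjusted p = 1e-19) with an interval between the inserts of -0.13 to 0.01. Trem2, a lipid-sensing receptor, fell 1.87-fold from 75 and 78 CPM to 40.8 and 41.3 CPM (adjusted p = 5.71e-11). Maf, a transcription factor of tissue macrophages, fell 2.17-fold from 57.2 and 50.1 CPM to 25.2 and 24.1 CPM (adjusted p = 2.86e-11).

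Other macrophage genes named by their p or fold were lower than in dKO_EV yet higher than with the dead enzyme. Cd36, the scavenger receptor for oxidized lipoprotein, stood at 74.8 and 79.5 CPM (dKO_EV), 13.8 and 16.6 CPM (dKO_MUT) and 25.8 and 21.5 CPM (dKO_PRMT1). Mmp12, the macrophage elastase gene, stood at 180.2 and 194, 56.1 and 57.9 and 92.5 and 89.3 CPM. Dab2, an adaptor for endocytosis, stood at 123 and 114, 44.6 and 41.2 and 74.2 and 66.3 CPM. In each gene the dKO_PRMT1 libraries lay between those of the other groups without overlap. Against dKO_EV the drops were 3.27-fold, 2.06-fold and 1.69-fold (adjusted p = 8.82e-17, 2.1e-16 and 1.51e-10). Against dKO_MUT the increases were 1.56-fold, 1.59-fold and 1.64-fold (adjusted p = 8.18e-05, 9.61e-10 and 2.08e-08). Mrc1, the mannose receptor gene, was 1.76-fold above dKO_MUT (adjusted p = 7.35e-11), at 115 and 109.7 CPM against 65.3 and 62.4 CPM. Its decrease against dKO_EV (1.23-fold, adjusted p = 0.000763) no longer passed without dKO_EV replicate 2, at a log2 difference of -0.20. Against dKO_MUT 12 of the 47 monocyte and macrophage markers were higher and 3 lower (1 without dKO_MUT replicate 1), and the 12 came to 6 without dKO_MUT replicate 1 and to 5 without dKO_PRMT1 replicate 1.

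The 6 monocyte and macrophage markers that rose over dKO_EV included genes of younger monocytes. Fn1, the fibronectin gene, rose 1.7-fold from 123 and 126 CPM to 209 and 216 CPM (adjusted p = 1.28e-12). Vcan, which encodes versican, rose 1.54-fold from 209.8 and 216 CPM to 316 and 338 CPM (adjusted p = 1.84e-10). F13a1, the coagulation factor XIII subunit made by monocytes, rose 1.53-fold from 349 and 341 CPM to 522 and 536 CPM (adjusted p = 1.2e-14). All 3 were also higher with the mutant, at 200.1 and 194 CPM, 339 and 299.7 CPM and 608 and 583 CPM.

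Lipid genes and cytokine receptors, some of them also macrophage genes, changed in both directions. Of 30 lipid handling genes 15 were lower and 5 higher at a median of -0.22. Plin2, the coat protein of lipid droplets, fell 1.5-fold from 402 and 427 CPM to 277 and 277 CPM (adjusted p = 2.31e-13). Of 34 myeloid cytokine receptor genes 11 were lower and 5 higher, the latter 3 without dKO_PRMT1 replicate 1 and 1 without replicate 2. Il7r, the interleukin 7 receptor chain, stood at 47.3 and 49.1 CPM in dKO_EV, 15.9 and 19.5 CPM in dKO_MUT, and was 2.44-fold lower in dKO_PRMT1 than in dKO_EV (adjusted p = 7.72e-12). Vcam1, the adhesion molecule of marrow macrophages, was an exception to the decreases. It rose 1.58-fold over dKO_EV and 1.6-fold over dKO_MUT, from 33 and 35 CPM and 38.6 and 28.6 CPM to 52.1 and 55.5 CPM (adjusted p = 1.34e-05 and 4.51e-05).

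Lysosome and matrix genes, which macrophages express strongly, were among the lower lists, whereas of 24 haem and iron genes 5 were higher and 5 lower. The 5 higher came to 1 without dKO_PRMT1 replicate 1 and to 3 without dKO_PRMT1 replicate 2 or dKO_EV replicate 2. Of 67 lysosomal genes 27 were lower and 3 higher at a median of -0.12. Ctsb, the cathepsin B gene, fell 1.71-fold from 1814 and 1948 CPM to 1110.1 and 1086 CPM (adjusted p = 5.76e-19), and Lgmn, the asparaginyl protease legumain, fell 2.06-fold from 236 and 240.4 CPM to 121 and 110.3 CPM (adjusted p = 1.32e-17). Ctsd, the cathepsin D gene, fell against dKO_EV (1.53-fold) and against dKO_MUT (1.14-fold, adjusted p = 0.000381). Among 28 genes of the lysosomal membrane and proton pump the 14 lower ones came to 9 without dKO_EV replicate 2 and to 7 without dKO_PRMT1 replicate 2. The E-box letters CACGTG were in 26.6% of 64 lysosomal promoter windows against 9.9% over all tested genes, but in 6.68% of windows of genes called lower. Fth1, the ferritin heavy chain, stood at 2183 and 2304 CPM with the empty vector, 1597 and 1632 CPM with the mutant and 1366 and 1367 CPM with wild-type PRMT1. It fell 1.64-fold and 1.18-fold against these groups (adjusted p = 8.58e-19 and 2.44e-06). Tfrc, the transferrin receptor that brings iron in, rose from 267 and 275 CPM to 330.3 and 341 CPM (1.24-fold, adjusted p = 1.13e-06) and lay 1.22-fold above dKO_MUT (adjusted p = 2.29e-05). Of 29 matrix and metalloproteinase genes 16 were lower and 1 higher. Col4a1 and Col4a2, the chains of basement membrane collagen, fell 4.24-fold and 3.58-fold, to 2.81 and 3.64 CPM and 4.16 and 3.9 CPM (adjusted p = 1.38e-07 and 3.1e-07).

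Genes of the immediate early response were lower in part. Of 26, 9 were lower and 2 higher, the latter 0 without dKO_PRMT1 replicate 1 and 1 without replicate 2. Atf3 and Jun, members of the AP-1 family, stood at 72.9 and 66.7 CPM and 94.9 and 87.2 CPM in dKO_EV and at 42.8 and 38.1 CPM and 62.4 and 63.1 CPM in dKO_PRMT1. They fell 1.72-fold and 1.45-fold (adjusted p = 8.07e-09 and 2.08e-06), and Jund fell 1.54-fold (adjusted p = 9.11e-10). The AP-1 letters TGANTCA were in 10.1% of promoter windows of genes called lower, in 4.96% of those called higher and in 5.01% of those not called.

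Genes of the cell cycle were modestly higher. Of 67 mitosis genes 24 were higher and none lower, at a median of 0.17, and the count was 12 when dKO_EV replicate 2 was omitted and 9 or 10 when replicate 1 or 2 of dKO_PRMT1 was. Mki67, the proliferation marker gene, stood at 483 and 500.3 CPM in dKO_EV and 600.5 and 672 CPM in dKO_PRMT1. It rose 1.29-fold (adjusted p = 3.43e-07), and dKO_MUT was at 617 and 602 CPM. Kif15 and Kif11, motor proteins of the spindle, rose 1.27-fold and 1.18-fold, from 119 and 106 CPM to 143 and 142 CPM and from 209 and 195 CPM to 231 and 244 CPM (adjusted p = 6.3e-05 and 0.00071). Of 61 DNA replication genes 12 were higher and none lower, with 6 and 5 higher when dKO_PRMT1 replicate 1 or 2 was left out. Mcm5, a subunit of the replicative helicase, rose 1.12-fold from 389 and 405 CPM to 447 and 444 CPM (adjusted p = 0.00309). E2f8, a repressor of the cycle that is itself a cycle gene, rose 1.22-fold from 138 and 147 CPM to 177 and 172 CPM (adjusted p = 9.45e-05). Of 49 genes of recombination, checkpoint and Fanconi repair, 5 were higher with DESeq2 or in a fit of the 2 groups alone. In the main fit 8 were higher and none lower. That count was 3 when dKO_EV replicate 2 was omitted and 2 or 4 when replicate 1 or 2 of dKO_PRMT1 was. Against dKO_MUT 5 mitosis genes were higher, and none of those calls was left when any of the 4 libraries compared was omitted. Ccnd1, the G1 cyclin D1, went the other way and fell 1.49-fold from 90.9 and 94.4 CPM to 62.2 and 61.9 CPM (adjusted p = 1.42e-07).

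The promoters of mitosis genes are shown for the element of the cell cycle genes, with the letters TTTGAA on either strand, and the CCAAT box that often stands before it. TTTGAA was in 68.3% of 60 windows of the mitosis list and CCAAT in 73.3%, against 12.3% and 37.8% of windows of all tested genes. Among genes called higher the shares were 15.8% and 41.8%. With only the bases before the gene start, the shares of the mitosis list were 36.7% and 70.0%. Those of all tested genes were then 10.9% and 35.3%. Kif11 lies at chr19:37376327-37376378 on the plus strand, Mki67 at chr7:135716462-135716577 on the minus strand and Kif15 at chr9:122950962-122951080 on the plus strand (RefSeq, GRCm38.p6). Matches to either set of letters are in capitals. The Kif15 stretch was shortened, and of the 2 TTTGAA matches before its gene start only the nearer is shown. Any CCAAT further upstream of Kif15 is not shown either.
Kif11: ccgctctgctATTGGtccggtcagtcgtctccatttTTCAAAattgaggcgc
Mki67: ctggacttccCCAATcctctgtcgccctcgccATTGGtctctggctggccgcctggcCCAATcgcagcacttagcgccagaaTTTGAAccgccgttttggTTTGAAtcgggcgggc
Kif15: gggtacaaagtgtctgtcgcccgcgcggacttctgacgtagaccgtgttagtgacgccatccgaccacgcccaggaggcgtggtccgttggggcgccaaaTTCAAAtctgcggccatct
The 3 genes shown are those of the list with TTTGAA before the gene start and the smallest p against dKO_EV. Matches after the gene start did not count for this choice, and a chromosome was left out of the search.

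Transcripts of RNA-binding proteins, a class that holds many known PRMT1 substrates, were higher in part and by small amounts. Calls made up 19.5% of the list, all higher, beside 5.96% called higher over all tested genes. The log2 difference was positive in 38 members and negative in 3. Of 41 hnRNP, SR and FET family genes 8 were higher and none lower at a median of 0.06, with 4 higher without dKO_EV replicate 2 and 3 without either dKO_PRMT1 library. Taf15, a FET family protein, rose 1.2-fold from 124 and 120.0 CPM to 146 and 146 CPM (adjusted p = 0.001). Among 19 tested arginine methyltransferases and cofactors other than Prmt1, 1 was higher and 2 lower, with 1 lower and none higher without either dKO_PRMT1 library. The 1 higher did not pass with DESeq2, limma voom, the stricter count filter or the fit of the 2 groups alone. Btg1, which encodes a binding partner of PRMT1, stood at 198 and 197 CPM (dKO_EV), 193 and 204 CPM (dKO_MUT) and 165 and 152 CPM (dKO_PRMT1). It fell against both groups, with a log2 difference of -0.32 in each case (adjusted p = 2.27e-05 and 7.15e-05), and its dKO_EV and dKO_MUT libraries overlapped.

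Chaperones of the endoplasmic reticulum, where granule proteins are folded, were higher in part. Of 17, 8 were higher and none lower, with 5 and 3 higher without dKO_PRMT1 replicate 1 or 2. Hsp90b1, the chaperone GRP94, stood at 1179 and 1243 CPM in dKO_EV and 1332 and 1353 CPM in dKO_PRMT1, and rose 1.11-fold (adjusted p = 0.00142). Pdia6, a disulfide isomerase, rose 1.13-fold from 425 and 445 CPM to 497 and 488 CPM (adjusted p = 0.00169).

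Several basic programs gave few or no calls against dKO_EV. The Wnt and p53 lists, given last, had 16.1% and 12.5% called, near the 14.6% of all tested genes. All calls in both were lower, beside 8.67% called lower over all tested genes. With DESeq2, or in a fit of the 2 groups alone, 2 p53 targets were lower. No gene passed the edgeR test among 45 of ribosome biogenesis or among 20 aminoacyl-tRNA synthetases. Of these, 6 and 2 had an unadjusted p below 0.05, and DESeq2 and limma voom called 0 in both lists. The stricter count filter called 1 ribosome biogenesis gene lower. Neither list stayed free of calls in every fit with a library left out. Of 60 oxidative phosphorylation genes 3 were higher and 1 lower, with 10 higher when dKO_EV replicate 2 was left out and none when dKO_PRMT1 replicate 2 was. Of 80 cytosolic ribosomal protein genes 5 were higher and none lower than in dKO_EV, at a median of 0.02. The 5 ranged from 1 without dKO_PRMT1 replicate 2 to 11 without dKO_EV replicate 2. Against dKO_MUT 17 of them were lower, but none was lower without dKO_PRMT1 replicate 1, 1 without dKO_MUT replicate 2 and 6 without dKO_PRMT1 replicate 2. Of 31 Wnt and β-catenin genes 5 were lower, and 1 without dKO_PRMT1 replicate 2. Of 32 p53 targets 4 were lower and none higher, with 2 lower without dKO_PRMT1 replicate 1 or 2.

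**Figure D5:**
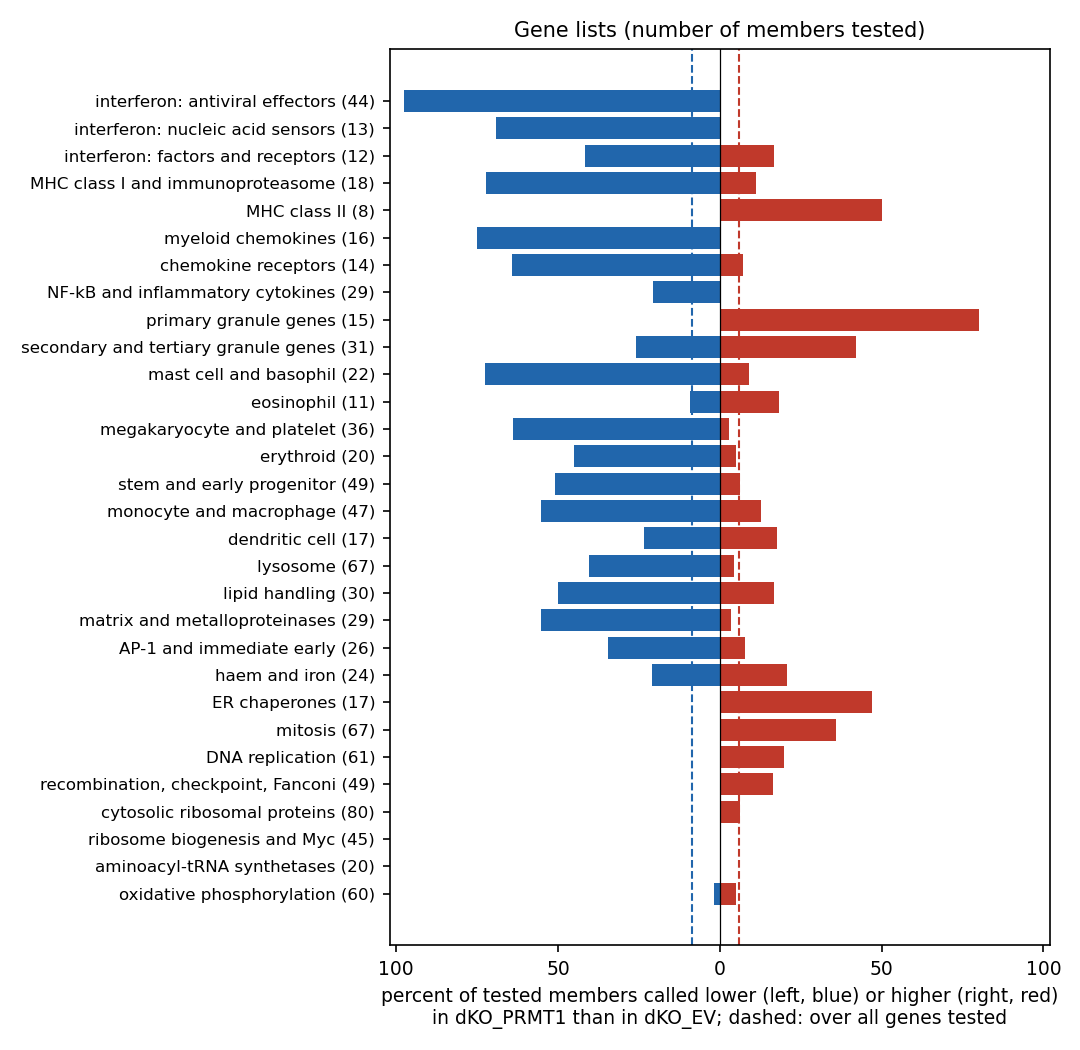
Percent of the tested members of each gene list called lower (left) or higher (right) in dKO_PRMT1 than in dKO_EV, with the number tested in parentheses and the shares over all tested genes as dashed lines (8.67% lower, 5.96% higher). Antiviral effectors, chemokines and mast cell genes reach furthest to the left and primary granule genes furthest to the right, while ribosome biogenesis and aminoacyl-tRNA synthetases have no bar.

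The direct comparison of wild-type with dead PRMT1 gave fewer calls than that with the empty vector. In all 396 genes (3.11%) passed, 182 higher (1.43%) and 214 lower (1.68%) in dKO_PRMT1, 5 of the higher (0.0392%) and 21 of the lower (0.165%) by at least 2-fold. Without dKO_PRMT1 replicate 1 the number was 171, without dKO_PRMT1 replicate 2 it was 205, and without dKO_MUT replicate 1 or 2 it was 244 or 240. Apart from Prmt1, the genes with the smallest p in this comparison were Retnlg, Mmp9 and Cpa3 on the lower side and Mrc1, Mmp12 and Prtn3 on the higher side. Lipg, which encodes endothelial lipase, rose against both groups, from 33.7 and 34.2 CPM with the mutant and 46.1 and 52 CPM with the empty vector to 71 and 61.5 CPM with wild-type PRMT1. The increase was 1.95-fold over dKO_MUT (adjusted p = 6.2e-09) and 1.35-fold over dKO_EV (adjusted p = 0.000964), and the latter no longer passed without dKO_PRMT1 replicate 1, at a log2 difference of 0.32. Epx, the eosinophil peroxidase gene, was 1.61-fold higher than in dKO_MUT (adjusted p = 1.6e-08). It stood at 106 and 102 CPM with the empty vector, 62.6 and 56.5 CPM with the mutant and 96.7 and 95.5 CPM with wild-type PRMT1. Alas1, the first enzyme of haem synthesis, was 1.32-fold higher than in dKO_MUT, at 333 and 321 CPM against 245 and 251 CPM (adjusted p = 7.18e-08).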

How the data were processed

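RNA-seq of 8 libraries in 4 groups was analysed from the table the authors deposited, which holds raw read counts per gene for 24421 genes. Per the submitters' processing notes the reads were trimmed with Trim Galore 0.6.6, aligned with STAR 2.7.6a and counted with featureCounts on mm10. Per the labels' protocols total RNA went into a strand-specific kit. For counting, the strand setting and the annotation were not given in the sources used here; a gene and an antisense or overlapping partner may share reads.

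Genes were filtered with filterByExpr (minimum count 10), which left 12744, and scaled by TMM. Groups were compared with the quasi-likelihood test of edgeR 4.0.16 (R 4.3.3) on all 8 libraries, group as the only term, with Benjamini-Hochberg adjustment over the genes tested and a threshold of 0.05. Standard errors are the log2 difference divided by the square root of F, and 95% intervals are unadjusted. In counts simulated from these libraries, 50 genes each were changed 1.25-fold, 1.5-fold, 2-fold and 4-fold among 12436 genes. For the comparison of dKO_PRMT1 with dKO_EV the test recovered 40%, 86%, 86% and 96% of them, and 13 of 167 calls fell on unchanged genes. All groups were simulated from dKO_EV levels. The changed genes were drawn only from those above a minimum expected count, so these rates do not cover genes at low levels.

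The gene lists and the comparisons were chosen with earlier results of these data known. Genes were named from Prmt1, Ctnnb1 and Hoxa9 as checks; per direction and comparison, the 12 largest called changes among genes with an established symbol, a mean CPM not under 5 and no overlap of the libraries, and the 10 smallest p-values; and per list, the first 3 genes of each role, up to 6 called members with the smallest p in each direction, and members called in opposite directions in both comparisons. Hlf, Ifit3b, Ifnar1, Irf9, Isg15, Mecom, Oas1a, Psmb8, Slamf1 and Trem2 are outside that rule and were chosen after their values were seen. Some genes that the rule would name are not reported here. Alternatives were other size factors, filters, thresholds, DESeq2 1.42.0, limma 3.58.1 (voom), fits restricted to the pair of groups under comparison, the replicate number as a block, and omission of each library.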

Additional observations from a re-analysis of the deposited data

How the results depend on the processing

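The counts of called genes depended most on single libraries and on the threshold. Leaving out each library in turn, genes called between dKO_PRMT1 and dKO_EV ranged from 1058 to 1945, those higher from 367 to 839 and those lower from 691 to 1113; 1133 were called without dKO_PRMT1 replicate 1 and 1058 without replicate 2. Between dKO_PRMT1 and dKO_MUT the ranges were 171 to 550 called, 69 to 241 higher and 102 to 310 lower; 171 and 205 were called without dKO_PRMT1 replicate 1 or 2, and 244 and 240 without dKO_MUT replicate 1 or 2. At an adjusted p of 0.01 the first comparison called 1139 genes, 396 of them higher, and the second called 219, 100 higher and 119 lower. With 1 library left in a group, that library is assumed to vary like the other groups. The other size factors, count filters and tests, and the fit of the 2 compared groups alone, kept the totals of called genes within 1.5 times. Some counts within lists moved by more.

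Same-numbered libraries did not deviate together (correlations of replicate differences from -0.0321 to -0.00168 over 12744 genes). These values cannot decide whether same-numbered libraries share a mouse or a preparation, since noise of single libraries could hide a shared origin. With a replicate block 1853 and 403 genes were called. Of 107 named genes called against dKO_EV 101 kept their call under every alternative, the stricter threshold included, as did all 40 called against dKO_MUT. Calls of Alas1, Cd34, Kit, Lipg, Mrc1 and Prmt2 were each lost without at least 1 library. Lpl, which was not called between dKO_PRMT1 and dKO_MUT, turned from a log2 difference of 0.02 to -0.009 without dKO_MUT replicate 1, the lowest value, and was highest at 0.0391 without dKO_MUT replicate 2. Of 3420 list counts compared, 368 moved by over 1.5 times, 311 of them with a library left out. Of the genes below a mean of 1 CPM 3.39% were called against dKO_EV, all by at least 2-fold, so smaller changes there were not detectable at this depth.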
